A study of Mus musculus with 9 samples.

Results

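The enzymes that lengthen fatty acids in the mouse liver were followed at the mRNA level in animals fed a high-sucrose diet (HSD) or chow. The genes were chosen by name: 5 elongases (*Elovl6*, *Elovl5*, *Elovl2*, *Elovl3* and *Elovl1*) and 3 enzymes of the steps that all elongases share (*Hsd17b12*, *Hacd3* and *Tecr*), 8 of the 19329 gene symbols measured. The study used 9 C57BL/6J mice, 4 fed HSD and 5 kept on chow, and sequenced poly-A RNA of each liver. All were on chow before the split at 8 weeks of age, the diets ran for 3 weeks, and the livers were taken at 11 weeks. The mice carry no engineered allele, each library is 1 animal, and neither the labels nor the methods give the sex of the mice or the hour at which livers were taken. Only mRNA was measured, so the report holds no enzyme activity and no lipid level.

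Fatty acids of palmitate length and beyond are lengthened in the membrane of the endoplasmic reticulum by a cycle of condensation with malonyl-CoA, reduction, dehydration and a final reduction. The ELOVL enzymes catalyse the condensation, which sets the pace of the cycle and selects the substrate, whereas Hsd17b12 (3-ketoacyl-CoA reductase), Hacd3 (3-hydroxyacyl-CoA dehydratase) and Tecr (trans-2-enoyl-CoA reductase) serve chains of any length. Elovl6 lengthens the palmitate that fatty acid synthase releases, Elovl5 and Elovl2 act on polyunsaturated chains in alternation with the Fads desaturases, and Elovl3 and Elovl1 make saturated and monounsaturated very long chains.

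The estimated counts summed to 14040723 to 24825322 per HSD library (median 20282685) and to 12769668 to 25913869 per chow library (median 17791258). After a filter on low counts, 12091 genes were tested with edgeR's quasi-likelihood test, and a Benjamini-Hochberg adjusted p under 0.05 over all of them counted as higher or lower on HSD. Of these genes 807 passed (6.67%), 416 higher (3.44%) and 391 lower (3.23%). Fold changes are log2(HSD/chow) of scaled counts (CPM, the count relative to library size), whereas levels are given as TPM, which also allows for transcript length, so that genes can be compared. The median log2 fold change of all tested genes was -0.004 on the CPM scale, and that of the 10542 genes averaging 1 TPM or more was 0.155 on the log2(TPM + 0.1) scale, so TPM values sat slightly higher on HSD in general.

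Some livers stood apart. Chow 1 carried 6.56% of its TPM in the acute phase genes *Saa1*, *Saa2* and *Hp*, against 0.18% to 0.43% in the other 8 livers. The clock gene *Arntl* read 1.98 to 4.57 TPM in the HSD livers, against 1.76 TPM in Chow 1, 4.38 TPM in Chow 3 and 0.653 to 0.821 TPM in the remaining chow livers. *Dbp*, a clock output gene, read 34.0 to 86.2 TPM in the HSD livers, against 31.9 TPM in Chow 1, 24.0 TPM in Chow 3 and 109 to 124 TPM in the other chow livers. The elongase results are therefore given with and without these chow livers. Leaving them out does not balance the clock genes between diets, since the remaining chow livers did not overlap the HSD livers in *Arntl* or *Dbp*. The library labels fall into 2 series, the second of which holds HSD 3, HSD 4 and Chow 5. Neither the labels nor the methods say what the series stand for.

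On HSD, 3 of the 8 genes rose, none fell and 5 did not pass the test. All 8 passed the filter on low counts, and edgeR called 3.44% of all tested genes higher. The genes that rose were *Elovl6*, *Elovl5* and *Elovl2*, the elongases of palmitate and of polyunsaturated chains. They were also the members whose CPM values did not overlap between the diets, HSD being above chow, a pattern seen in 5.84% of all tested genes. DESeq2 likewise called 3 members higher and 0 lower, and edgeR had 3 members higher and 0 lower at an unadjusted p under 0.05, which 23.7% of all tested genes reached in either direction. In a whole liver, a change in the number of cells of a type and a change in the RNA per cell cannot be told apart.

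**Figure D1:**
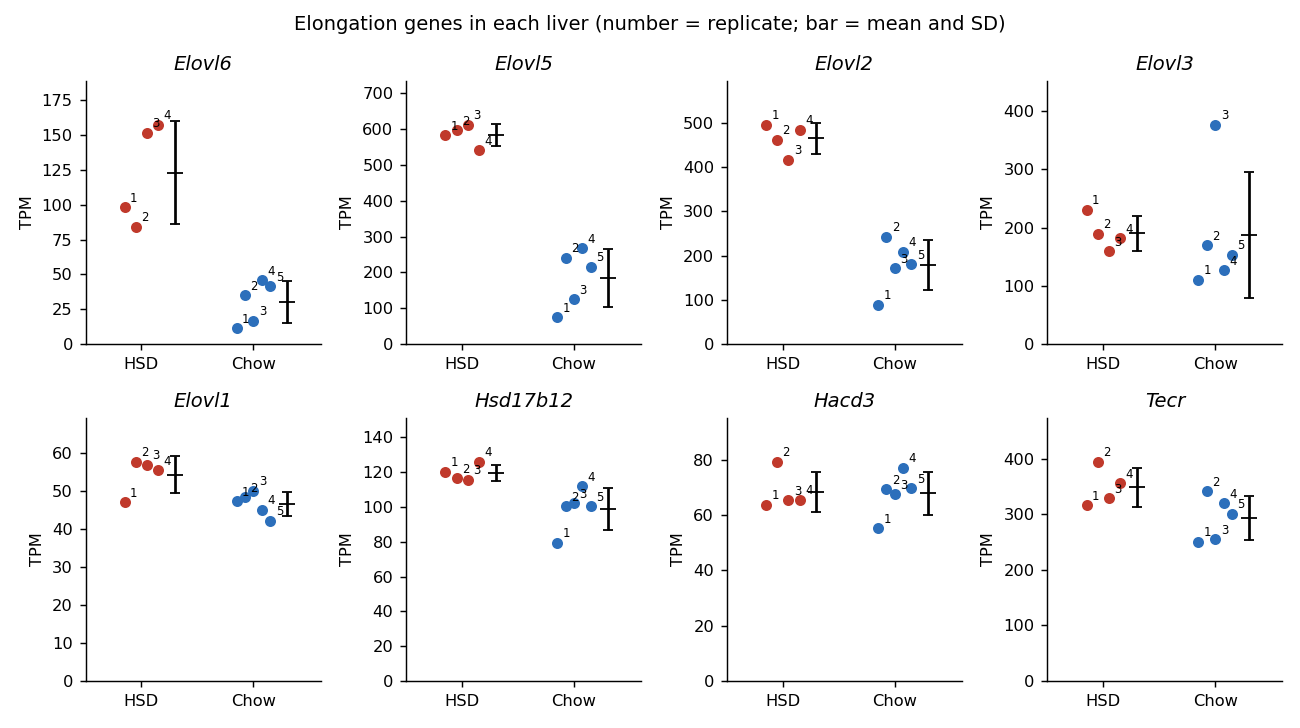
Levels of the 8 genes in each liver, in TPM, with HSD livers to the left of chow livers in every panel, 1 numbered point per mouse (4 HSD, 5 chow), and the bar at the mean with its SD. *Elovl6*, *Elovl5* and *Elovl2* have every HSD liver above every chow liver, whereas *Elovl3* spans 160 to 231 TPM on HSD and 111 to 376 TPM on chow.

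*Elovl6* elongates palmitate and palmitoleate, the products of de novo lipogenesis, to stearate and vaccenate. The gene lies on chromosome 3 (GRCm38, chr3:129532355-129638495, plus strand). It read 98.4, 84.3, 152 and 157 TPM in HSD 1 to 4, against 11.6, 35.2, 16.8, 45.9 and 41.4 TPM in Chow 1 to 5. The lowest HSD liver was above the highest chow liver, and the lowest chow values were those of Chow 1 and Chow 3. The mean was 123 ± 37.0 TPM on HSD and 30.2 ± 15.2 TPM on chow (SD, n = 4 and 5). *Elovl6* had a log2 fold change of 1.91 (SE 0.338, 95% confidence interval 1.17 to 2.64, edgeR adjusted p = 0.007672), the 22nd largest of the 12091 genes by size of increase. Without Chow 1 and Chow 3 the log2 fold change was 1.48 (adjusted p = 0.00108). Of the 31-base sequences of its transcripts 6.52% also occur in other genes, so a small part of its counts could be traded with them.

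*Elovl5* lengthens polyunsaturated fatty acids of middle length, between the Fads2 and Fads1 desaturation steps. It lies on chromosome 9 (chr9:77917364-77984519, plus strand) and shares no 31-base sequence with another gene. The HSD livers held 582, 597, 611 and 540 TPM, against 74.7, 241, 125, 267 and 215 TPM in the chow livers. The HSD values lay close together (CV 5.29%), whereas the chow values spread widely (CV 44.05%), Chow 1 and Chow 3 again being lowest. The mean was 582 ± 30.8 TPM on HSD and 185 ± 81.3 TPM on chow (SD, n = 4 and 5), with a log2 fold change of 1.52 (SE 0.2575, interval 0.96 to 2.08, edgeR adjusted p = 0.006565). Without Chow 1 and Chow 3 the log2 fold change was 1.17 (adjusted p = 6.14e-05).

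*Elovl2* acts on the longer polyunsaturated chains and is needed for docosahexaenoate. It lies on chromosome 13 (chr13:41182381-41220405, minus strand) and also shares no 31-base sequence with another gene. *Elovl2* read 495, 462, 417 and 484 TPM in the HSD livers, against 89.5, 243, 172, 209 and 180 TPM in the chow livers. The lowest HSD liver was well above the highest chow liver, and Chow 1 was the lowest liver by a wide margin. The mean was 464 ± 34.9 TPM on HSD and 179 ± 57.1 TPM on chow (SD, n = 4 and 5). The log2 fold change was 1.24 (SE 0.1913, interval 0.82 to 1.65, edgeR adjusted p = 0.004458), and 1.03 without Chow 1 and Chow 3 (adjusted p = 0.000746).

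The promoters of these 3 genes are shown because the genes moved together. The printed stretches end just before the earlier of the RefSeq and GENCODE starts, and come from RefSeq (GRCm38.p6), which gave a window for 7 of the 8 members. Capitals mark matches, on either strand, to the E-box CACGTG, the CCAAT box CCAAT, the GC box GGGCGG and the nuclear receptor core AGGTCA.
*Elovl6* (chr3:129532136-129532354, plus strand): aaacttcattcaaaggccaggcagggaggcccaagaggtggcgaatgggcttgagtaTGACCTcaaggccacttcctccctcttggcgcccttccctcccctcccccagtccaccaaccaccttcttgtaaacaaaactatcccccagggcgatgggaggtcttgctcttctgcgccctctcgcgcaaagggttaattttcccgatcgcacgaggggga
*Elovl5* (chr9:77917115-77917363, plus strand): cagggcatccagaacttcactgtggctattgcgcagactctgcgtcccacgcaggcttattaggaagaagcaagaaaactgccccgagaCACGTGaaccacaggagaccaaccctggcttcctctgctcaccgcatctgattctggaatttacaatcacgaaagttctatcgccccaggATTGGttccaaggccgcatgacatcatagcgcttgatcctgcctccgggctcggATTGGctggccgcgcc
*Elovl2* (chr13:41220406-41220653, minus strand): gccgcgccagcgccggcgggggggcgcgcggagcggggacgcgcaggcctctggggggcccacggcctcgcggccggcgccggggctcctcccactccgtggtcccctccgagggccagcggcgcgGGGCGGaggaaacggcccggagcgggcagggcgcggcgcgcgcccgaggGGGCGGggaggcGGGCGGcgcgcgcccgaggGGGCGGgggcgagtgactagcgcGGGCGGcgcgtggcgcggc
In the *Elovl6* window the nuclear receptor core stood on the reverse strand at 193 to 188 bases before the RefSeq start, which lies downstream of the end of the printed stretch. The *Elovl5* window held an E-box at 161 to 156 bases and CCAAT boxes at 71 to 67 and 17 to 13 bases before the RefSeq start. The *Elovl2* window, with a GC content of 87.2%, held 5 GC boxes. Over 32544 promoter windows of the same length of 250 bases, the E-box occurred in 6.03%, the CCAAT box in 33.8%, the GC box in 33.0% and the nuclear receptor core in 14.0%. The sterol regulatory element TCACNCCAC, searched on both strands, occurred in 1.04% of all windows and in none of the 7 member windows. No searched motif was common to the 3 windows, and no binding was measured here.

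*Elovl3* makes saturated and monounsaturated very long chains, and in mouse liver its mRNA is known to follow the daily rhythm and to be higher in males. It lies on chromosome 19 (chr19:46131897-46135694, plus strand). The HSD livers held 231, 190, 160 and 182 TPM, against 111, 170, 376, 126.7 and 154 TPM in the chow livers. The diets overlapped, Chow 3 being the highest of all 9 in TPM and Chow 1 the lowest. A link to the clock genes was not tested. The mean was 190 ± 29.7 TPM on HSD and 188 ± 108 TPM on chow (SD, n = 4 and 5). The log2 fold change was -0.15 (SE 0.305, interval -0.82 to 0.51, edgeR adjusted p = 0.8069), and its sign turned to 0.28 without Chow 3 (adjusted p = 0.282). The Y-linked gene *Ddx3y* read 15.4 to 16.2 TPM in the HSD livers and 7.60 to 16.0 TPM in the chow livers, so it was read in all 9 mice.

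*Elovl1*, which makes saturated and monounsaturated very long chains for sphingolipids in most tissues, was the lowest of the elongases on average in HSD livers. It lies on chromosome 4 (chr4:118428093-118432953, plus strand). *Elovl1* read 47.0, 57.6, 56.9 and 55.3 TPM in the HSD livers, against 47.3, 48.3, 50.0, 45.0 and 42.1 TPM in the chow livers. Its spread among chow livers was small in TPM (CV 6.56%), where Chow 1 and Chow 3 did not stand apart. In CPM the chow CV was 14.31%, Chow 1 (50.1 CPM) and Chow 3 (47.9 CPM) being the highest chow livers. The log2 fold change was 0.07 (SE 0.1153, interval -0.18 to 0.32, edgeR adjusted p = 0.7735).

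The enzymes of the shared steps did not pass the test. *Hsd17b12*, the ketoreductase, averaged 120 ± 4.75 TPM on HSD and 98.9 ± 11.9 TPM on chow, with a log2 fold change of 0.11 (interval -0.06 to 0.27, edgeR adjusted p = 0.4465). Its TPM values did not overlap (116 to 126 TPM on HSD, 79.4 to 112 TPM on chow), whereas its CPM values did. *Hacd3*, the dehydratase, averaged 68.5 ± 7.30 TPM on HSD and 67.8 ± 7.94 TPM on chow, with a log2 fold change of -0.14 (interval -0.35 to 0.06, adjusted p = 0.3903). *Tecr*, the enoyl reductase, averaged 349 ± 34.8 TPM on HSD and 293 ± 39.6 TPM on chow, with a log2 fold change of 0.13 (interval -0.09 to 0.35, adjusted p = 0.4612). Without Chow 1 and Chow 3, *Hsd17b12*, *Hacd3*, *Tecr* and *Elovl1* had log2 fold changes of 0.09, -0.18, 0.06 and 0.19, none of which passed (edgeR adjusted p = 0.532, 0.31, 0.788 and 0.34). The intervals of all 3 genes of the shared steps in the 9 livers reached no further than a log2 fold change of 0.35. *Tecr* shares 10.2% of its 31-base sequences with other genes. *Hsd17b12* lies on chromosome 2 (chr2:94032689-94157964, minus strand), *Hacd3* on chromosome 9 (chr9:64986983-65021693, minus strand) and *Tecr* on chromosome 8 (chr8:83571698-83607971, minus strand).

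**Figure D2:**
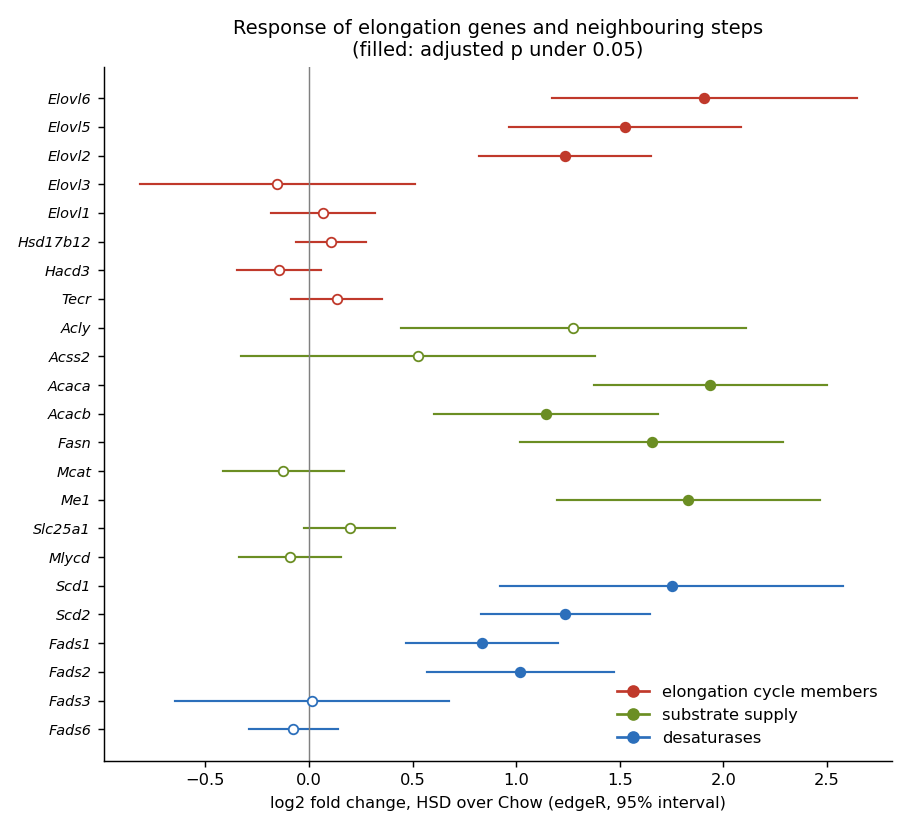
Log2 fold change (HSD over chow, edgeR) of the 8 genes and, below them, of the tested genes of substrate supply and desaturation, with 95% confidence intervals and filled points where the adjusted p is under 0.05. The intervals of *Elovl6* (1.17 to 2.64), *Elovl5* (0.96 to 2.08) and *Elovl2* (0.82 to 1.65) lie above 0, and those of the other 5 members include 0.

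To compare the elongases by the chains they act on, the log2 ratio of each pair was taken within every liver, which removes the scaling between libraries, and its mean was compared between diets. A two-sided exact permutation test over the 126 ways of splitting the 9 livers cannot go below p = 0.0159. Of the 10 pairs, 6 passed after Benjamini-Hochberg adjustment over the pairs. These were the pairs that set *Elovl6*, *Elovl5* or *Elovl2* against *Elovl3* or *Elovl1*, each at the smallest p of 0.0159 (exact, adjusted p = 0.0265) and each without overlap between diets. *Elovl6* gained 2.0 log2 units on *Elovl3* and 1.94 on *Elovl1*. *Elovl5* gained 1.64 on *Elovl3* and 1.58 on *Elovl1*, and *Elovl2* gained 1.29 and 1.23. Without Chow 1 and Chow 3 the same 6 pairs still did not overlap, but the gains were smaller, at 1.21 and 1.28 for *Elovl6*, 0.94 and 1.01 for *Elovl5*, and 0.81 and 0.89 for *Elovl2*. With 3 chow livers the exact permutation test cannot go below p = 0.0571, which each of these pairs had.

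Among the elongases that rose, the order of the fold changes was *Elovl6*, *Elovl5*, *Elovl2*, but neighbours in that order did not differ beyond their spread. The log2 ratio of *Elovl6* to *Elovl5* averaged -2.29 ± 0.483 on HSD and -2.65 ± 0.201 on chow (SD, n = 4 and 5, exact permutation p = 0.206, adjusted p = 0.229). That of *Elovl6* to *Elovl2* averaged -1.97 ± 0.499 on HSD and -2.67 ± 0.519 on chow (exact permutation p = 0.0952, adjusted p = 0.136). For *Elovl5* to *Elovl2* it averaged 0.33 ± 0.174 on HSD and -0.02 ± 0.339 on chow (exact permutation p = 0.127, adjusted p = 0.159). The very-long-chain pair, *Elovl3* to *Elovl1*, had 1.80 ± 0.344 on HSD and 1.86 ± 0.641 on chow (exact permutation p = 0.889, adjusted p = 0.889). The ratio of *Elovl6* to *Elovl5* moved by 0.03 in the series with HSD 1 and HSD 2 and by 0.48 in the series with HSD 3 and HSD 4, where *Elovl6* was highest.

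**Figure D3:**
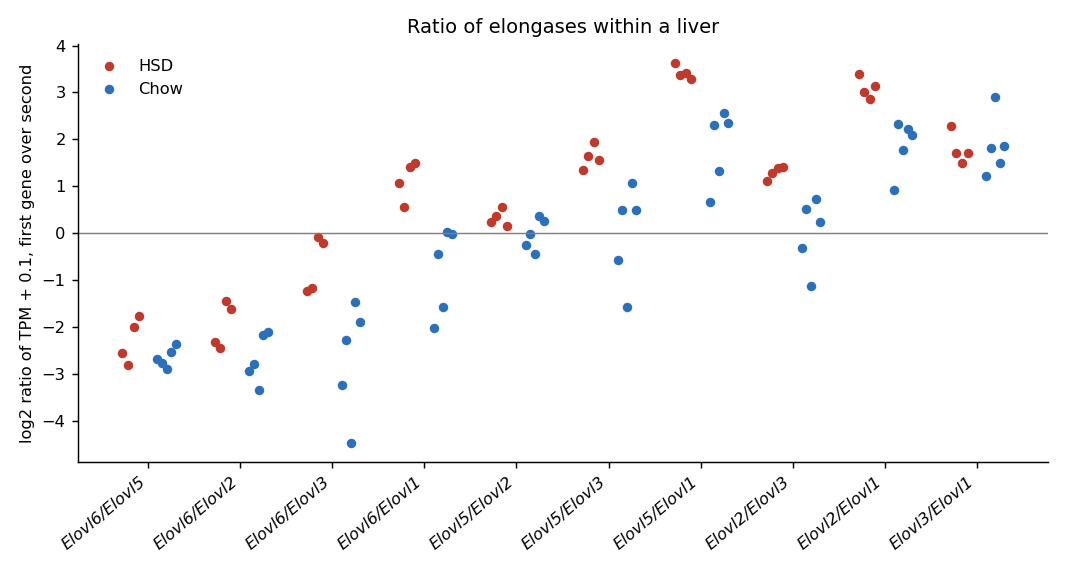
Log2 ratio of TPM + 0.1 for each of the 10 pairs of elongases within a liver, HSD livers left of chow livers, 1 point per mouse (4 HSD, 5 chow). The 6 pairs of *Elovl6*, *Elovl5* or *Elovl2* with *Elovl3* or *Elovl1* do not overlap between diets, whereas the other 4 pairs do.

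The summed TPM of the 5 elongases was 1453, 1390, 1395 and 1418 in the HSD livers, against 334, 737, 740, 693 and 633 in the chow livers. The HSD sums lay within a narrow range, and Chow 1 was far below the other chow livers. Within this sum, *Elovl5* and *Elovl2* together made up 74.0% ± 1.63 on HSD and 57.2% ± 12.1 on chow, with ranges that did not overlap (72.2% to 76.2% on HSD, 40.1% to 68.6% on chow). The chow livers other than Chow 1 and Chow 3 held 62.5% to 68.6%. *Elovl6* made up 8.70% ± 2.65 on HSD and 4.74% ± 1.90 on chow, with overlap. *Elovl3* and *Elovl1* together made up 17.3% ± 1.53 on HSD and 38.1% ± 13.8 on chow. The share of *Elovl3* was highest in Chow 3 (50.9%), and that of *Elovl1* in Chow 1 (14.2%). These shares are of transcripts, not of enzyme or of product.

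**Figure D4:**
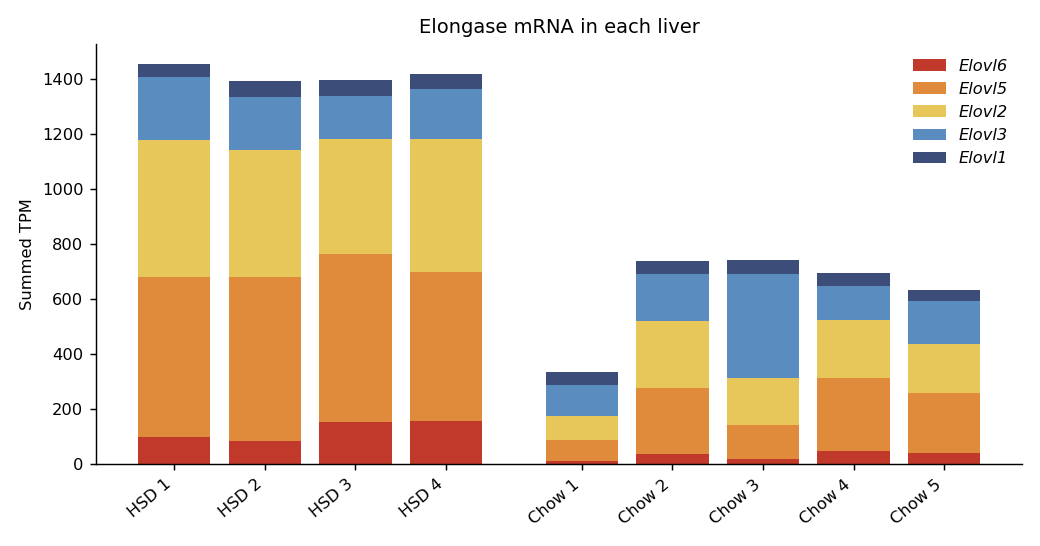
Summed level of the 5 elongases in each liver, in TPM, stacked by gene, with the 4 HSD livers left of the 5 chow livers. The HSD bars reach 1390 to 1453 TPM and the chow bars 334 to 740 TPM, the lowest being Chow 1.

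The order of the levels also differed. In all 4 HSD livers it ran *Elovl5*, *Elovl2*, *Elovl3*, *Elovl6*, *Elovl1*. In chow livers *Elovl5* was above *Elovl2* in 2 of 5, *Elovl2* above *Elovl3* in 3 of 5, and *Elovl6* above *Elovl1* in 1 of 5. Outside Chow 1 and Chow 3, *Elovl5* and *Elovl2* were both above *Elovl3*, as on HSD. Some of the other pairs were close there, such as *Elovl5* and *Elovl2* in Chow 2 (240.7 and 242.8 TPM). *Elovl6* and *Elovl1* were also close in Chow 4 (45.89 and 44.95 TPM) and Chow 5 (41.43 and 42.13 TPM). On chow the means of *Elovl3*, *Elovl5* and *Elovl2* (188 ± 108, 185 ± 81.3 and 179 ± 57.1 TPM) did not differ beyond their spread. Those means include Chow 1 and Chow 3. In Chow 2, Chow 4 and Chow 5 *Elovl3* read 170, 126.7 and 154 TPM. *Elovl5* read 241, 267 and 215 TPM there, and *Elovl2* 243, 209 and 180 TPM. *Elovl6* stayed below *Elovl5*, *Elovl2* and *Elovl3* in all 9 livers.

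Over the 9 livers the log2 CPM of *Elovl6*, *Elovl5* and *Elovl2* ran together. Pearson's r was 0.97 for *Elovl6* with *Elovl5*, 0.97 for *Elovl5* with *Elovl2* and 0.92 for *Elovl6* with *Elovl2*. With values centred within each diet the same r were 0.86, 0.84 and 0.64. *Elovl3* had an r of -0.21 with *Elovl6* and 0.09 with *Elovl2*. These values describe 9 livers that share 2 diets and the low Chow 1 and Chow 3, and carry no test.

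The genes most like each elongase were sought among tested genes above a minimum average level, without the members. For *Elovl6* they were *Pnpla3*, a lipid droplet protein (r = 0.993, centred 0.971), and *Acat2*, a cytosolic thiolase of sterol synthesis (0.988, centred 0.951). *Aebp2*, a Polycomb cofactor, came next (0.983, centred 0.978). Among those most like *Elovl5* were *Cyp2b10*, a cytochrome P450 of drug metabolism (0.978, centred 0.908), and *Rdh16*, a retinol dehydrogenase (0.977, centred 0.9). For *Elovl2* they were *Spopl* (0.981, centred 0.919), *Rnf11* (0.981, centred 0.925) and *H2afz*, a histone variant (0.980, centred 0.899). For *Elovl3* the closest were *Cript* (0.879, centred 0.882), *Elavl1*, an RNA-binding protein (0.867, centred 0.87), and *Pfkl*, the liver phosphofructokinase (0.863, centred 0.917). These uncentred r were lower than those for *Elovl5* and *Elovl2*, whereas the centred r lay close to theirs. All r are over the 9 livers.

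The other genes of the elongation cycle were low or did not pass the test. *Elovl4* and *Tecrl* were at 0 counts in every liver, and *Elovl7* read 0.0840 to 0.291 TPM on HSD and 0 to 0.260 TPM on chow. *Hacd1*, *Hacd2* and *Hacd4*, the remaining dehydratases, were tested, and 0 of 3 passed in edgeR or DESeq2 and 0 of 3 had an unadjusted p under 0.05. Their log2 fold changes were 0.08, 0.04 and -0.35.

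The substrate supply list groups genes of acetyl-CoA, malonyl-CoA, NADPH and fatty acid metabolism. Not all of them make the malonyl-CoA or the palmitate that Elovl6 uses. In this list 4 of 9 genes rose and none fell, with a median log2 fold change of 1.15 against -0.004 over all genes. *Acaca*, the acetyl-CoA carboxylase of the cytosol, had 99.3, 62.2, 146 and 131 TPM in the HSD livers, against 16.7, 28.6, 17.2, 40.5 and 36.7 TPM in the chow livers. Every HSD liver was above every chow liver, Chow 1 and Chow 3 being lowest (log2 fold change 1.94, SE 0.26, edgeR adjusted p = 0.001986). *Me1*, the malic enzyme that supplies NADPH, had a log2 fold change of 1.83, *Fasn*, fatty acid synthase, 1.65, and *Acacb*, the mitochondrial carboxylase, 1.15 (adjusted p = 0.005227, 0.007397 and 0.01969). The call of *Acacb* was lost without HSD 1, HSD 3 or HSD 4 (adjusted p up to 0.0666). *Acly*, ATP-citrate lyase, had a log2 fold change of 1.27 that did not pass (adjusted p = 0.06881).

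The desaturases, which alternate with the elongases, rose in 4 of the 6 genes tested and fell in none (median log2 fold change 0.93). *Scd1*, stearoyl-CoA desaturase, which uses the product of Elovl6, read 10720, 8436, 10580 and 12330 TPM in the HSD livers, against 926, 4652, 1244, 4401 and 3126 TPM in the chow livers. The diets did not overlap, and Chow 1 and Chow 3 were the lowest (log2 fold change 1.75, SE 0.38, edgeR adjusted p = 0.01997). *Fads2*, the desaturase before Elovl5, averaged 1023 ± 163 TPM on HSD and 457 ± 156 TPM on chow (log2 fold change 1.02, adjusted p = 0.01518). *Fads1*, the desaturase between Elovl5 and Elovl2, averaged 396 ± 54.7 TPM on HSD and 201 ± 55.3 TPM on chow (log2 fold change 0.83, adjusted p = 0.01478). *Scd2* rose too (1.24, adjusted p = 0.003958) at 2.67 to 4.16 TPM on HSD and 0.856 to 1.51 TPM on chow. Without HSD 4 only *Scd2* passed, since *Fads1* and *Fads2* then had adjusted p of 0.0517 and 0.0512 and *Scd1* also lost its call. The call of *Scd1* was lost without HSD 1 as well (adjusted p up to 0.0618).

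Electron supply for the reductions and desaturations (6 genes) held no gene that rose in edgeR and 1 that fell, *Cyb5a*, cytochrome b5 (log2 fold change -0.39, adjusted p = 0.04062), a call lost in 7 of 9 analyses with 1 liver left out. Among acyl-CoA synthetases, which activate fatty acids, 1 of 11 rose (*Acsl5*, 0.72, adjusted p = 0.04971) and 2 fell (*Acsm1*, -0.60, and *Acsm5*, -0.46), with a median of -0.20. The calls of *Acsl5* and *Acsm5* were each lost in 7 of 9 such analyses. The peroxisomal chain shortening list, not all of whose genes act on straight very long chains, had 5 of 13 genes lower and 1 higher, with a median of -0.24. Among those that fell were *Acox2* (-0.63), *Acaa1a* (-0.58), *Amacr* (-0.43) and *Acox3* (-0.38), and *Abcd2*, a very-long-chain acyl-CoA transporter, rose (1.79, adjusted p = 0.03242), with CPM values that overlapped between diets and a call lost in 6 of 9 analyses with 1 liver left out. With 1 liver left out, 1 to 4 of the 13 were lower and 0 or 1 higher, the lowest count of lower genes coming without HSD 1, HSD 3 or HSD 4, and limma on TPM called 0 lower. *Acox2* kept its call without any single liver. Of all tested genes, edgeR called 3.44% higher and 3.23% lower. Ceramide synthases, which use very-long-chain acyl-CoA, had 0 of 4 tested genes past the test in edgeR or DESeq2 and 0 at an unadjusted p under 0.05.

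Against 3.44% higher and 3.23% lower of all tested genes, 1 of 17 regulators of lipogenic genes rose and none fell. It was *Insig2*, which holds SREBP precursors in the endoplasmic reticulum, with 205 to 255 TPM on HSD and 94.5 to 144 TPM on chow (log2 fold change 0.86, edgeR adjusted p = 0.01428). *Srebf1*, the gene of SREBP-1, and *Mlxipl*, the gene of ChREBP, had log2 fold changes of 0.22 and 0.11 (adjusted p = 0.509 and 0.5781). At an unadjusted p under 0.05, 2 of the 17 were higher and 0 lower, and without Chow 1 and Chow 3 edgeR called 1 higher and 2 lower.

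The sample label fitted the hepatocyte markers, *Alb*, *Apoa1* and *Ttr* being high in every liver. In edgeR, 0 of 8 hepatocyte markers passed (unadjusted, 1 higher and 0 lower), with a summed level of 83900 to 107000 TPM on HSD and 50100 to 101000 TPM on chow. Of 10 Kupffer cell and macrophage markers 0 passed (5 lower unadjusted, summed level 137 to 285 TPM on HSD and 220 to 398 TPM on chow). None passed among 7 sinusoidal endothelial, 8 stellate cell and 5 cholangiocyte markers (unadjusted, 1 lower, 4 higher and 2 higher), nor did the 1 lymphocyte and neutrophil marker tested. DESeq2 called 2 stellate cell markers higher and none of the hepatocyte, Kupffer cell, endothelial, cholangiocyte, lymphocyte or neutrophil markers. Of 5 red blood cell markers tested 1 was lower, *Alas2*. The adipocyte markers *Lep* and *Retn* were at 0 in all livers, and *Adipoq* was above 0 only in HSD 3 (0.596 TPM). Of 19 clock genes 0 passed (3 higher and 2 lower unadjusted), of 15 acute phase genes 0 (9 lower unadjusted, summed level 16400 to 18300 TPM on HSD and 14600 to 113000 TPM on chow), and of 8 sex-linked or sex-biased genes 0 (1 higher and 2 lower unadjusted). DESeq2 called 2 clock genes higher and 1 lower, and 2 sex-linked or sex-biased genes lower. It called 0 of the 8 acute phase genes to which it gave an adjusted p. Without Chow 1 and Chow 3, edgeR called 3 of 18 clock genes higher and 8 lower, so that clock genes then differed between the diets, and 1 gene lower in each of the acute phase, sex, hepatocyte and endothelial lists and 1 cholangiocyte marker higher. The part of these cells and of the acute phase genes in the elongase differences was not tested. The fit with *Arntl* relative to *Dbp* as a covariate gave log2 fold changes of 2.39, 1.85 and 1.34 for *Elovl6*, *Elovl5* and *Elovl2* (adjusted p = 0.000499, 0.000577 and 0.00266). Outside Chow 1 and Chow 3 this covariate did not overlap between the diets, so the fit cannot separate a clock difference from diet in those livers. The part of the clock genes in the elongase differences is therefore not settled by it.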

How the data were processed

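Estimated counts and TPM of 9 mouse livers were used. The authors deposited both per gene symbol, as estimated counts from kallisto on GRCm38 (version not given in the sources used here), from poly-A libraries read as pairs of 51 bases. The deposited TPM were scaled by the authors and sum to 923061 to 945110 per library. Kallisto divides reads among near-identical transcripts, so genes with close copies can trade counts. Of the whole values 99.1% are even.

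Counts were rounded, filtered with filterByExpr (minimum count 10, minimum total 15), TMM-scaled and fitted by quasi-likelihood (edgeR 4.0.16, R 4.3.3, 7 residual degrees of freedom, biological coefficient of variation 0.187). Scripts were tested on simulated data. Pairs used log2(TPM + 0.1). DESeq2 1.42.0, limma 3.58.1 on log2(TPM + 1) and log2(TPM + 0.1), other scalings, no filter, halved counts, a replicate block, label series and single livers left out were alternatives. A clock covariate and leaving out Chow 1 and Chow 3 were added after seeing the data. Members and lists were chosen with earlier results of these data known. The text names the 8 members, up to 4 passing genes per list, and the 3 genes most like each elongase that passed or *Elovl3*, apart from genes not reported here. Other genes, including *Acly*, *Acox3*, *Srebf1*, *Mlxipl*, *Alas2*, *Ddx3y*, *Saa1*, *Saa2* and *Hp*, were named after their values were seen. Lists were not set-tested. The tables held 0 columns of other samples. Positions are from GENCODE for GRCm38.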

Additional observations from a re-analysis of the deposited data

Results flagged for a closer look

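Within each diet, the highest or lowest liver is given here where its distance to the next liver, divided by the range of that diet, exceeded Dixon's 95% critical value. This happened in 8 of 58 groups (13.8%), against about 1 in 20 by chance. Each value is a difference in log2 CPM, or in its mean over a list, from the mean of the other livers of the same diet.

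*Elovl1* was low in HSD 1, by -0.31. *Hacd3* was low in Chow 1, by -0.13. Among list means, HSD 1 was apart by 0.39 in the other elongation cycle genes, and the acyl-CoA synthetases were apart in HSD 2 (0.16) and in Chow 1 (-0.29). Chow 1 was also apart in peroxisomal chain shortening (-0.41), the acute phase genes (3.95) and the sex-linked and sex-biased genes (-0.33).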

How the results depend on the processing

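*Elovl6*, *Elovl5* and *Elovl2* passed under every alternative except label series 1 alone (2 HSD, 4 chow), where the log2 fold changes were 1.65, 1.61 and 1.28 (adjusted p = 0.141, 0.116 and 0.108). With 1 liver left out they ranged over 1.71 to 2.07, 1.34 to 1.65 and 1.08 to 1.37, and adjusted p reached at most 0.0303, 0.0238 and 0.0185.

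Over all genes, those higher and those lower numbered 632 and 663 in DESeq2, 220 and 205 with the replicate block, 15 and 19 in label series 1 alone, and 153 to 475 and 149 to 493 with 1 liver left out (lowest without HSD 1). Lower genes numbered 254 with library totals and 101 in both limma fits on filtered TPM, whose higher genes numbered 475 and 448, and limma on all genes gave 243 and 51. *Elovl3* turned to 0.157, 0.158 and 0.157 in the 3 limma fits, to 0.227 without Chow 1 and Chow 3 and over -0.29 to 0.28 with 1 liver left out. *Hacd3* turned to 0.016 in limma and *Elovl1* to -0.048 in label series 1 alone. The cause was not tested, and label series 1 alone also held fewer samples.

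With 1 liver left out, the ratio differences ranged over 1.55 to 2.30 (*Elovl6* to *Elovl3*), 1.64 to 2.15 (*Elovl6* to *Elovl1*), 1.25 to 1.92 (*Elovl5* to *Elovl3*), 1.29 to 1.76 (*Elovl5* to *Elovl1*), 1.01 to 1.47 (*Elovl2* to *Elovl3*), 0.995 to 1.35 (*Elovl2* to *Elovl1*), 0.185 to 0.533 (*Elovl6* to *Elovl5*), 0.539 to 0.870 (*Elovl6* to *Elovl2*), 0.244 to 0.445 (*Elovl5* to *Elovl2*) and -0.223 to 0.202 (*Elovl3* to *Elovl1*, above 0 without HSD 3, at 0.045, or Chow 3). Without an HSD liver the 6 passing pairs had adjusted p = 0.0595, each pair being at the smallest p that 3 against 5 livers give (exact permutation). Without Chow 1 and Chow 3 their differences were 1.205, 1.283, 0.938, 1.015, 0.808 and 0.886, again at the smallest p, and that of *Elovl3* to *Elovl1* was 0.078. Replicate numbers did not pair the livers (correlations of same-numbered livers -0.061 to 0.066), and 1 of 4 HSD and 2 of 4 chow livers were closest to their own number. With the replicate block, in which Chow 5 has no partner, log2 fold changes were 2.18, 1.71 and 1.29 for *Elovl6*, *Elovl5* and *Elovl2* (adjusted p = 0.00916, 0.0127 and 0.0152). Intervals are for the difference between diets, given the spread between these mice. Changes smaller than the intervals given could not be resolved with 4 against 5 livers.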
